A study of Mus musculus with 8 samples.

Results

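The *Mir302* genes and *Mir367* are microRNA genes that lie side by side in one cluster, in the order *Mir302b*, *Mir302c*, *Mir302a*, *Mir302d* and *Mir367*, on the plus strand of mouse chromosome 3. They were chosen by name, as all rows of the array table whose gene symbol was one of these, and the set was proposed with their genotype values in *Sox3* null and control cells already known. Of 23410 named rows, 5 carried such a symbol, 1 row for each of the 5 genes. The same rule asked for the *Mir290* cluster, of which the reference gene table holds 9 genes. None of these 9 had a named row, so the *Mir290* cluster was not analysed here.

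The arrays measured RNA from neural progenitor (NP) cells made from mouse R1 embryonic stem (ES) cells, at Day 4 of monolayer culture in N2B27, a medium that steers ES cells towards neural fate. *Sox3* null cells, in which a GFP reporter replaces the coding sequence of *Sox3*, were compared with a control line with a conditional *Sox3* allele, named wild type in the study's methods. There were 4 arrays of each genotype, 2 in each of 2 independent differentiation series, here called batch 1 and batch 2. The 2 genotypes are different ES cell lines, both kept on irradiated fibroblasts before differentiation, so what the loss of *Sox3* does and what else sets these lines apart cannot be told apart. The study calls the samples biological replicates.

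A microRNA is cut from a hairpin in a longer primary transcript, first by Drosha with DGCR8 in the nucleus and then by Dicer in the cytoplasm, and is loaded into an Argonaute protein. It finds its target messages mainly through its seed, the bases just after its 5′ end. The miR-302 and miR-290 families are the dominant microRNAs of early embryonic pluripotent cells: the miR-290 family is typical of naive ES cells, the *Mir302* cluster is a known target of OCT4 and SOX2 and rises as cells enter the primed epiblast state, and both decline as cells differentiate. Members of these families promote the passage from G1 to S phase by repressing inhibitors of the cell cycle, among them *Cdkn1a*, *Lats2* and *Rbl2*.

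The mature sequences show what these genes share. They are RefSeq sequences with build GRCm38.p6, printed 5′ to 3′ with the seed, bases 2 to 8, in capitals. Arms from the 3′ side of the hairpins, where the *Mir302* genes carry the family's seed, are shown first, without miR-302a-3p.
mmu-miR-302b-3p: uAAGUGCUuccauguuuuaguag
mmu-miR-302d-3p: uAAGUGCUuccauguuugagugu
mmu-miR-302c-3p: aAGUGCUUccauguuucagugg
mmu-miR-367-3p: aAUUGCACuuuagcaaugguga
The seed AAGUGCU was shared by miR-302b-3p and miR-302d-3p. The table's miR-302c-3p begins 1 base later, so its seed reads AGUGCUU, but the same run of 16 bases, AAGUGCUUCCAUGUUU, stands in all 3 of these arms. The arm of *Mir367* has another seed, AUUGCAC, so the cluster carries more than 1 seed family. For comparison, these are the arms of the *Mir290* cluster with the seed AAGUGCU, whose genes had no named row.
mmu-miR-291a-3p: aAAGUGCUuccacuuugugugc
mmu-miR-294-3p: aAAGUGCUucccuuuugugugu
mmu-miR-295-3p: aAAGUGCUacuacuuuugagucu
On the 5′ side of the hairpins, miR-302b-5p, miR-302c-5p and miR-302d-5p have the seed CUUUAAC, miR-302a-5p has the seed CUUAAAC, and miR-367-5p has the seed CUGUUGC.
mmu-miR-302a-5p: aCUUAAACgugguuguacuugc
mmu-miR-302b-5p: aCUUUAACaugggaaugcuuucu
mmu-miR-302c-5p: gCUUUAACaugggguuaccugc
mmu-miR-302d-5p: aCUUUAACauggaggcacuugcu
mmu-miR-367-5p: aCUGUUGCuaacaugcaacuc

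The arrays read the RNA that holds a hairpin gene and not the mature microRNA, so the hairpins bear on how far the 5 rows are separate measurements. They are shown for 2 genes, also from RefSeq, with the mature arms in capitals.
Mir302d hairpin: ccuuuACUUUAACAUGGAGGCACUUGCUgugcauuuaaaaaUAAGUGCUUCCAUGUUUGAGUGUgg
Mir367 hairpin: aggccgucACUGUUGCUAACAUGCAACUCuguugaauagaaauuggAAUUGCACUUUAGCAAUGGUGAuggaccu
The hairpin of *Mir302d* has 66 bases and that of *Mir367* has 75. Any pair of *Mir302* hairpins shared an unbroken run of 16 to 20 bases, whereas *Mir367* shared at most 9 bases with any of them. The probe sequences were not used here, so whether a *Mir302* row also reads RNA of another *Mir302* gene was not tested. The 5 rows are treated below as readings of 1 cluster and not as independent replicates.

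The labels of the arrays were checked first. On the log2 scale *Sox3* averaged 9.81 ± 0.0852 in control (SD, n = 4) and 8.50 ± 0.143 in null cells (SD, n = 4), a difference of -1.31, and its groups did not overlap. All 8 neural progenitor markers lay above the median signal of named rows, and *Pou5f1* and *Nanog*, which define pluripotent cells, were measured on every array too. The mean log2 signal of 9 pluripotent cell markers ran from 9.04 to 9.26 in control cells and from 9.06 to 9.14 in *Sox3* null cells, and that of 8 fibroblast markers from 6.61 to 6.82 and from 6.46 to 6.71. That of 8 neural progenitor markers ran from 11.4 to 11.5 in control cells and from 11.6 to 11.7 in *Sox3* null cells, and that of 5 neuronal markers from 9.32 to 9.40 and from 9.45 to 9.72. For the neural progenitor and the neuronal markers the ranges of the genotypes did not overlap. In each of these 4 lists 1 marker passed: *Nes* and *Map2* were higher and *Nanog* and *Thy1* lower in *Sox3* null cells (limma, adjusted p no higher than 0.05). The other markers did not pass, and 1.55% of all named rows passed in either direction. The genotype difference was below 0 for 0 of 8 neural progenitor and 1 of 5 neuronal markers. It was below 0 for 6 of 9 pluripotent cell and 4 of 8 fibroblast markers. Whether these marker differences reflect cell makeup, and what part they have in the values below, was not tested. In bulk RNA, fewer cells of a type and less RNA in each cell cannot be told apart.

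All of the *Mir302* and *Mir367* genes had a lower mean signal in *Sox3* null cells than in control cells, by 1.30-fold to 1.76-fold, and the difference was larger in batch 1 than in batch 2 for each gene. Since the genes were proposed with this comparison known, it is described here without a test. *Mir302d*, whose mature 3′ arm carries the family seed, had log2 signals of 8.02 and 8.50 in control cells of batch 1 and of 8.16 and 7.88 in control cells of batch 2. In *Sox3* null cells it had 7.14 and 6.96 in batch 1 and 7.75 and 7.58 in batch 2. All 4 null arrays thus lay below all 4 control arrays, with the null arrays of batch 1 lowest. The group means were 8.14 ± 0.266 (SD, n = 4) in control and 7.35 ± 0.370 (SD, n = 4) in null cells, a difference of -0.79 on the log2 scale.

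*Mir302c* had log2 signals of 7.89 and 8.26 in control cells of batch 1, 8.16 and 7.80 in control cells of batch 2, 6.74 and 6.77 in null cells of batch 1 and 7.61 and 7.71 in null cells of batch 2. The groups did not overlap, and the null arrays of the 2 batches were almost 1 unit apart, with both control pairs close to each other. Its means were 8.03 ± 0.220 (SD, n = 4) and 7.21 ± 0.529 (SD, n = 4), which gave the largest difference of the cluster, -0.82.

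*Mir302a* had log2 signals of 7.53 and 7.91 in control cells of batch 1, 8.19 and 7.42 in control cells of batch 2, 6.80 and 6.36 in null cells of batch 1 and 7.39 and 7.32 in null cells of batch 2. Here too the groups did not overlap, but the lower control array of batch 2 stood close to both null arrays of that batch. The means were 7.76 ± 0.358 (SD, n = 4) and 6.97 ± 0.483 (SD, n = 4), a difference of -0.79.

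*Mir302b*, the first hairpin of the cluster, had log2 signals of 6.66 and 6.93 in control cells of batch 1, 7.46 and 6.48 in control cells of batch 2, 6.10 and 5.83 in null cells of batch 1 and 6.52 and 6.66 in null cells of batch 2. The control array at 6.48 lay below both null arrays of its batch, so the genotypes overlapped. The means were 6.89 ± 0.426 (SD, n = 4) and 6.28 ± 0.382 (SD, n = 4), a difference of -0.61.

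*Mir367*, the last hairpin of the cluster and the one with another seed, had log2 signals of 5.58 and 6.19 in control cells of batch 1, 5.67 and 5.47 in control cells of batch 2, 5.07 and 5.12 in null cells of batch 1 and 5.71 and 5.49 in null cells of batch 2. In batch 2 the genotypes could not be separated, and over both batches they overlapped. The means were 5.73 ± 0.319 (SD, n = 4) and 5.35 ± 0.307 (SD, n = 4), a difference of -0.38, which was -0.18 without control replicate 2.

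**Figure D1:**
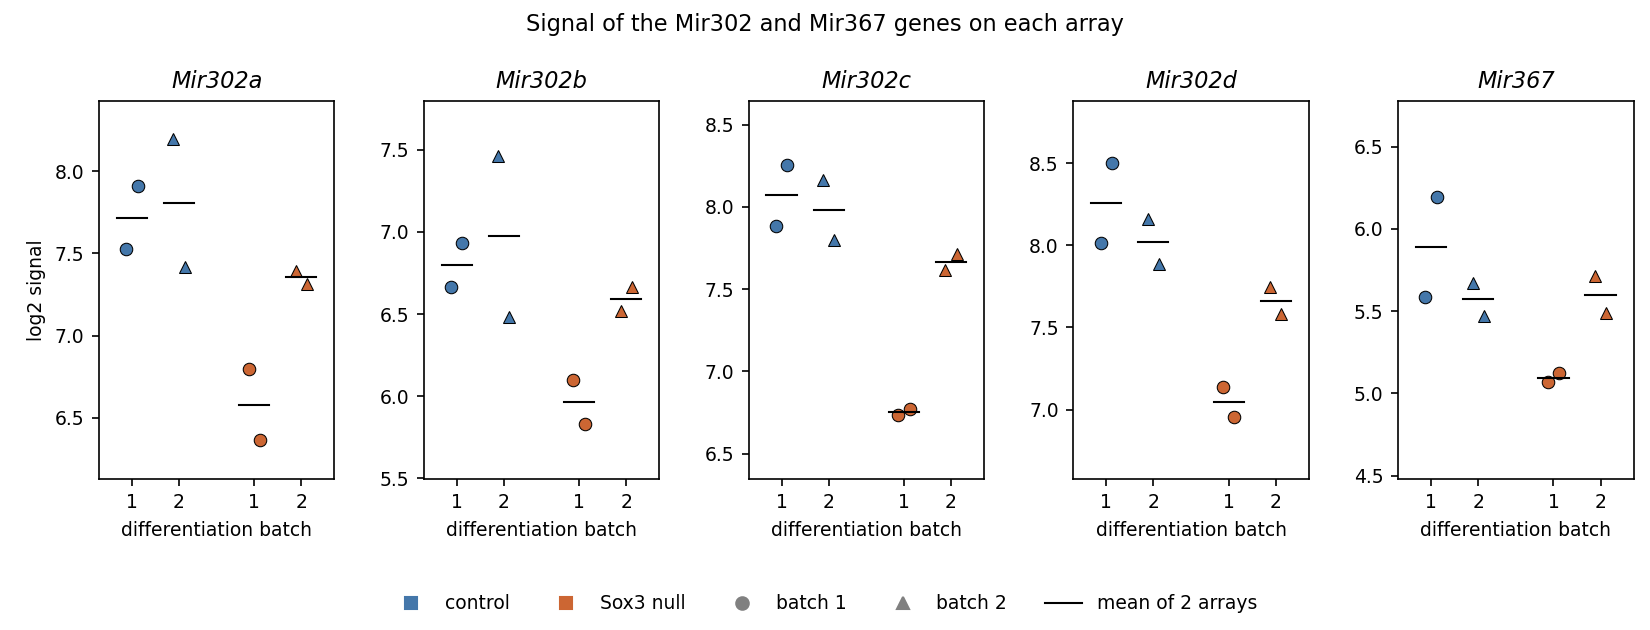
Log2 signal (y axis, its own range of equal span in each panel) of each gene on the 8 arrays, by genotype (colour) and differentiation batch (x axis and symbol), with short lines at the mean of 2 arrays. The 2 *Sox3* null arrays of batch 1 are the lowest of each panel, and in batch 2 the genotypes overlap for *Mir302b* and *Mir367*.

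All 4 null arrays lay below all 4 control arrays for 3 of the 5 genes, against 2.19% of the 23410 named rows. In batch 1, both null arrays lay below both control arrays for 5 of 5 genes, against 17.4% of named rows, and in batch 2 for 3 of 5, against 17.9%. These counts come from the comparison with which the genes were proposed, and nothing is read from them.

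In each gene the *Sox3* null arrays of batch 1 had the lowest mean of the 4 combinations of genotype and batch, and the order of the others took 3 forms. For *Mir302c* and *Mir302d* the order ran from control cells of batch 1 (means of 8.07 and 8.26) over control cells of batch 2 (7.98 and 8.02) to null cells of batch 2 (7.66 and 7.66) and null cells of batch 1 (6.75 and 7.05). For *Mir302a* and *Mir302b* the control cells of batch 2 came first (7.80 and 6.97), ahead of those of batch 1 (7.72 and 6.80), then null cells of batch 2 (7.35 and 6.59) and of batch 1 (6.58 and 5.97). For *Mir367* the null cells of batch 2 (5.60) stood between control cells of batch 1 (5.89) and of batch 2 (5.57), above null cells of batch 1 (5.10). In all 5 genes the arrays of the control pairs overlapped each other. The null pair of batch 2 overlapped the control pair of its batch in *Mir302b* and both control pairs in *Mir367*. The null pair of batch 1 overlapped no other pair in any of the 5 genes.

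The genotype difference in batch 1 was -1.32 for *Mir302c*, -1.21 for *Mir302d*, -1.14 for *Mir302a*, -0.83 for *Mir302b* and -0.79 for *Mir367*. In batch 2 it was -0.32, -0.36, -0.45 and -0.38 for the 4 *Mir302* genes in the same order and 0.03 for *Mir367*. Averaged over the 5 genes the difference was -1.06 in batch 1 and -0.30 in batch 2. The genes were chosen with earlier results of these data known, so the p-values that follow may not be independent of that choice. The change of the genotype difference between the batches was then tested. It was largest for *Mir302c*, at 1.00 on the log2 scale (95% interval 0.57 to 1.44, unadjusted p = 4.87e-04 from limma), followed by *Mir302d* at 0.85 (0.37 to 1.34, unadjusted p = 0.00304) and *Mir367* at 0.82 (0.29 to 1.36, unadjusted p = 0.00650). *Mir302a* had 0.69 (-0.04 to 1.42) and *Mir302b* had 0.45 (-0.34 to 1.24). After adjustment over all named rows none of the 5 genes passed (adjusted p = 1.00 for each), and neither did any other row: 0% of the 23410 rows passed, the smallest adjusted p was 0.862, and 715 rows had an unadjusted p of 0.05 or less.

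The batches were next compared. With genotype as a term, the difference of batch 2 minus batch 1 was 0.43 for *Mir302a* (95% interval 0.02 to 0.85, adjusted p = 0.140 from limma), 0.41 for *Mir302c* (0.02 to 0.81, adjusted p = 0.142) and 0.40 for *Mir302b* (0.00 to 0.80, adjusted p = 0.157). It was 0.19 for *Mir302d* (adjusted p = 0.499) and 0.09 for *Mir367* (adjusted p = 0.774). None of the 5 genes passed, against 20.2% of named rows at the adjusted p alone and 2.49% with the fold threshold of 1.4 added. The control array with sample number 4 decided this result for 3 genes: without it, *Mir302a* had 0.66 (adjusted p = 0.00478), *Mir302b* 0.64 (adjusted p = 0.00108) and *Mir302c* 0.58 (adjusted p = 0.0223). *Mir302c* also passed without control replicate 2, at 0.59 (adjusted p = 0.0272).

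The batch difference was also fitted within each genotype, a comparison added after the values had been seen. In *Sox3* null cells *Mir302c* was 1.88-fold higher in batch 2 than in batch 1, a difference of 0.91 on the log2 scale (standard error 0.14, adjusted p = 0.00572 from limma), and *Mir302d* was 1.53-fold higher, a difference of 0.62 (standard error 0.15, adjusted p = 0.0360). *Mir302a* had a difference of 0.78 (adjusted p = 0.0675), *Mir302b* of 0.63 (adjusted p = 0.163) and *Mir367* of 0.51 (adjusted p = 0.0997). So 2 of 5 genes passed in null cells, against 5.12% of named rows that were higher in batch 2 by the same rule. This fit was prompted by the values that it tests, and the 5 rows are readings of 1 cluster. The p-values and the count are therefore descriptions, and nothing is read from the count. The count went to 4 of 5 without control replicate 3 or 4, where *Mir302a* (adjusted p = 0.0199) and *Mir302b* (adjusted p = 0.0169) passed too, to 3 without control replicate 1 or 2, where *Mir367* passed (adjusted p = 0.0246), and to 1 without any of the null arrays. The call of *Mir302c* held in all 12 alternatives run, with adjusted p from 0.00273 to 0.0489. That of *Mir302d* was lost in 5 of 12, among them without each of the 4 null arrays in turn (adjusted p = 0.0756 to 0.214). In control cells the differences were 0.09 for *Mir302a*, 0.18 for *Mir302b*, -0.09 for *Mir302c*, -0.24 for *Mir302d* and -0.32 for *Mir367*, and none of the 5 passed, against 2.89% of named rows higher in batch 2. Without control replicate 4, *Mir302b* passed in control cells, at 0.67 (adjusted p = 0.0404).

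**Figure D2:**
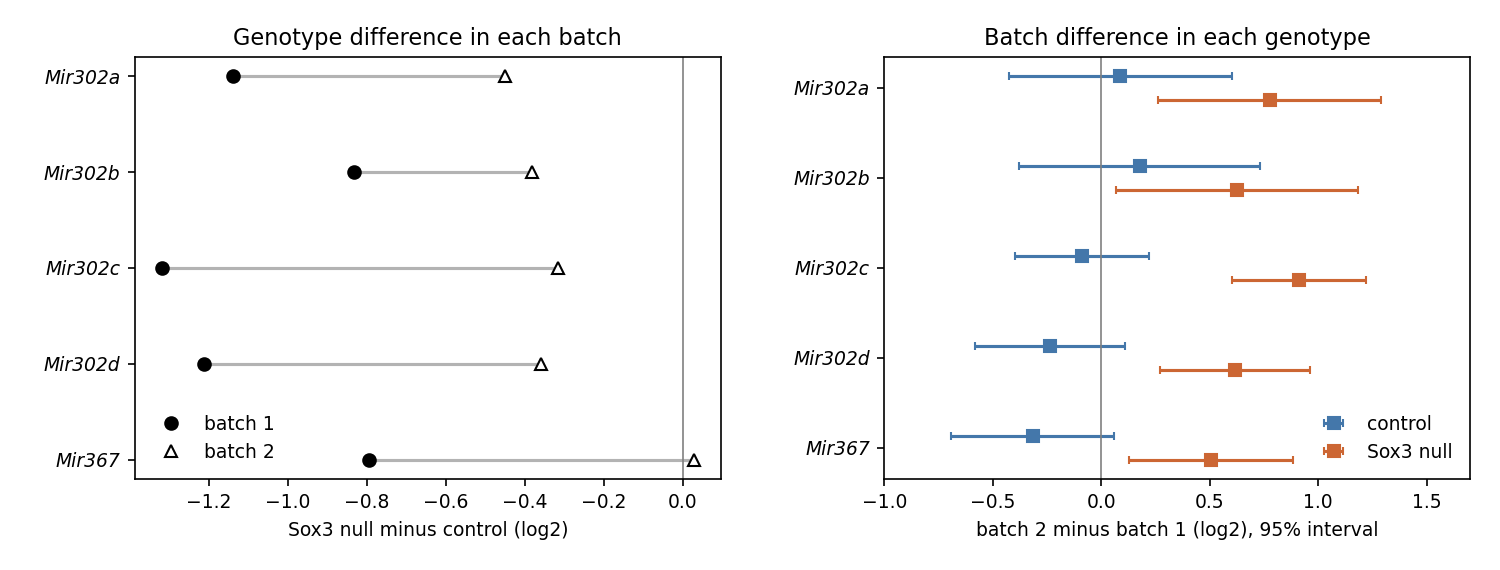
Left, *Sox3* null minus control (log2) for each gene in batch 1 (filled circles) and batch 2 (open triangles). Right, batch 2 minus batch 1 (log2) in control and in *Sox3* null cells, with 95% intervals from limma's fit of the 4 genotype and batch means. The intervals are not adjusted for the number of rows, and this comparison was added after the values had been seen. Those of the null cells lie above 0 for all 5 genes and those of the control cells include 0. After adjustment 2 of the 5 passed in null cells, and the change of the genotype difference between batches passed for none.

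For each of these genes the residual SD was higher than for most rows, with the widest gaps between control arrays. The residual SD within genotype and batch was 0.374 for *Mir302b*, 0.344 for *Mir302a*, 0.241 for *Mir367*, 0.216 for *Mir302d* and 0.189 for *Mir302c*, on the log2 scale. The median was 0.0870 over all named rows and 0.121 over the 298 rows of microRNA genes. By this SD *Mir302b* ranked 2 and *Mir302a* ranked 4 among the 298 microRNA rows, and *Mir367*, *Mir302d* and *Mir302c* ranked 15, 23 and 42. Each of the 5 genes stood above the 95th percentile of all named rows, from 96.0 for *Mir302c* to 99.9 for *Mir302b*.

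The widest gap was in control cells of batch 2, where the arrays of *Mir302b* were 0.978 apart and those of *Mir302a* 0.779. Control pairs were 0.266 to 0.609 apart in batch 1 and 0.200 to 0.978 in batch 2, and null pairs 0.0337 to 0.433 and 0.0769 to 0.226. The genes had one order in the control pairs: replicate 2 was above replicate 1 for 5 of 5 genes in batch 1, and replicate 3 above replicate 4 for 5 of 5 in batch 2. In the null pairs they had no common order: in batch 1 *Mir302a*, *Mir302b* and *Mir302d* were higher in replicate 1 and the others in replicate 2. In batch 2 *Mir302a*, *Mir302d* and *Mir367* were higher in replicate 3 and the others in replicate 4.

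Across the 8 arrays the 10 pairs of genes had Pearson correlations from 0.714 to 0.971, with a median of 0.906. The highest was between *Mir302a* and *Mir302b* and the lowest between *Mir302b* and *Mir367*. After the means of each genotype and batch were taken out, the correlations ran from 0.429 to 0.941, with a median of 0.788, again with those pairs at either end. These are descriptions over arrays that share a batch and a genotype, of genes that share a transcript and, among the *Mir302* hairpins, sequence.

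The mean of the 5 genes per array, on the log2 scale, was 7.14, 7.56, 7.53 and 7.01 in control replicates 1 to 4, of which numbers 1 and 2 are batch 1. It was 6.37 and 6.21 in the null replicates of batch 1 and averaged 6.97 in those of batch 2. The control array with number 4 was thus level with the null cells of batch 2. The rows were of middling to low signal: *Mir302d* stood at the 51.0 percentile of named rows, *Mir302c*, *Mir302a* and *Mir302b* at 49.5, 46.5 and 36.3, and *Mir367* at 20.4. Percentiles are given because the signals of different probe sets cannot be compared as amounts of RNA.

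The cluster lies within *Larp7*, on the opposite strand. *Larp7* encodes a protein of the 7SK complex that restrains transcription elongation. On the log2 scale its brighter row averaged 10.51 ± 0.168 in control (SD, n = 4) and 10.39 ± 0.107 in null cells (SD, n = 4), a difference of -0.12 (standard error 0.09, adjusted p = 0.627 from limma), and its other row had a difference of 0.03 (adjusted p = 0.926). *Zgrf1*, a nearby helicase gene, had 3 rows with differences of -0.06, -0.02 and 0.07. Of the 10 nearest measured genes, 5 on each side by gene order with *Larp7* among them, none passed for genotype. Their differences ran from -0.12 to 0.19, and 1 had an unadjusted p of 0.05 or less, against 3068 of the 23410 named rows. *Neurog2*, a proneural transcription factor near the cluster, had a difference of -0.04 (adjusted p = 0.788). For batch, *Ank2* was lower in batch 2, by -0.62 (adjusted p = 0.000339), and the other 9 did not pass.

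Near the *Mir290* cluster, 6 measured genes stood in for the 9 microRNA genes that had no named row. None passed for genotype, with differences from -0.09 to 0.08 and none with an unadjusted p of 0.05 or less, and *Myadm*, a myeloid differentiation marker gene, was lower in batch 2, by -0.79 (adjusted p = 0.000122). *AU018091*, beside the cluster in gene order, had a difference of 0.03 for genotype (adjusted p = 0.936). They are neighbours only and say nothing of the level of the *Mir290* transcript.

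RefSeq gives a long noncoding RNA, *Gm51018*, over the *Mir302* cluster on the same strand. It had no named row. The sequence around its annotated start, chr3:127544839-127545138 on the plus strand of GRCm38.p6, runs from 250 bases before the start to 50 after it and is shown because the rows of the cluster went up and down together over the arrays.
Gm51018 promoter: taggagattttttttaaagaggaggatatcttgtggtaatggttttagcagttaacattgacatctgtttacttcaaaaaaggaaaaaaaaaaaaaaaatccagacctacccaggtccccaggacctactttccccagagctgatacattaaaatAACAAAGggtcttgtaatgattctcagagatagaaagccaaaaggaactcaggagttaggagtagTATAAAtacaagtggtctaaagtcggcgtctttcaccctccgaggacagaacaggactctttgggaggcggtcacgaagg
Capitals mark the motifs found on the printed strand. AACAAAG, a form of the motif that Sox proteins bind, began 95 bases before the start and was found in 5.85% of 32851 mouse promoters of the same length. TATAAA, the core promoter motif that TBP binds, began 30 bases before the start and was found in 13.6% of them. ACAATG, another form of the Sox motif (12.6% of promoters), and ATGCAAAT, the octamer bound by OCT4 (1.74%), were not in this window. Both strands were searched in all promoters, and the 2 found do not overlap. A match is a run of letters and not a measured binding site.

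Of microRNA genes with a row of 1 symbol there were 296, on 298 rows. Over the 293 rows without the *Mir302* and *Mir367* genes, the median genotype difference was -0.03. Over all named rows 1.55% passed for genotype in either direction. Of the 293 rows, 1 was higher and 8 were lower in *Sox3* null cells, with an adjusted p no higher than 0.05 from limma. *Mir181b-1* was the one that was higher, by 0.48 (adjusted p = 0.00101). The 8 lower rows were *Mir127* (-0.70), *Mir382* (-0.64), *Mir377* (-0.62), *Mir300* (-0.59), *Mir134* (-0.53), *Mir485* (-0.49), *Mir679* (-0.48) and *Mir668* (-0.32). These 9 genes were named after their values were seen, because they are the microRNA genes outside the cluster that passed. Whether any of them share a transcript was not tested, so they are not taken as independent of each other. The differences of *Mir302a*, *Mir302c* and *Mir302d* were larger than that of any of these 9, and so were their standard errors, 0.17 to 0.19 against 0.05 to 0.11. The cluster's genes were proposed with this comparison known, so nothing is read from that order.

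The seed of miR-367-3p is shared by microRNAs of 6 other genes, of which 5 had a row. None of the 5 passed for genotype: *Mir25* had a difference of -0.12, *Mir32* of -0.09, *Mir363* of 0.03, *Mir92-2* of 0.00 and *Mir92b* of 0.10, with adjusted p from 0.444 to 0.996. *Mir92-2* was lower in batch 2 by -0.15 (adjusted p = 0.0419). The seed of miR-302b-3p and miR-302d-3p is shared by 3 other genes, all of the *Mir290* cluster and none with a row.

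Other microRNA groups were given as lists. Of 11 measured let-7 genes, whose mature products mark differentiated cells and oppose the miR-290 and miR-302 families, none passed for genotype. The median difference was 0.07, and 3 of the 11 had an unadjusted p of 0.05 or less, against 3068 of the 23410 named rows. *Mirlet7d* had 0.29 (adjusted p = 0.0560), *Mirlet7f-1* 0.22 and *Mirlet7a-2* 0.22. The next list held genes of the *Mir17-92*, *Mir106a* and *Mir106b* clusters, which hold microRNAs of a related seed and drive proliferation. *Mir32*, which shares the seed of miR-367-3p, was listed with them. Of these 15 genes none passed, with a median of -0.01. *Mir17hg*, the host transcript of *Mir17-92* and itself counted in the 15, had 0.22 (adjusted p = 0.115). Of 24 other microRNA genes of neural cells none passed, with a median of -0.02 and *Mir219a-2*, known for its part in oligodendrocytes, at 0.40 (adjusted p = 0.131). For batch, 3 let-7 genes and 7 of the *Mir17-92* group were lower in batch 2, and none of the neural group passed. Over all 23410 named rows 2546 were higher and 2190 lower in batch 2, 20.2% together.

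All 25 listed genes of the machinery that makes and uses microRNAs were measured. Of these 25 genes, which include *Drosha*, *Dgcr8*, *Dicer1* and the Argonaute genes, none passed for genotype. The median difference was 0.00, with a range from -0.16 to 0.18. An unadjusted p of 0.05 or less was found for 3 of the 25, against 3068 of the 23410 named rows. *Prkra*, which encodes a partner of Dicer, had 0.18 (adjusted p = 0.166). *Lin28a*, which encodes an RNA-binding protein that blocks the maturation of let-7, had -0.16 (adjusted p = 0.203). *Mov10*, a helicase of the silencing complex, had -0.15, and *Tut7*, which adds uridines to precursors, had 0.12. For batch, 1 of the 25 was higher and 8 were lower in batch 2, against 20.2% of all named rows in either direction.

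Of 18 measured genes reported elsewhere as targets of the shared seed, 3 passed the test and all 3 rose in *Sox3* null cells, while 15 did not pass. *Lats2* and *Rbl2* were among the 15, and *Cdkn1a* had no row of 1 symbol. Over the 18 genes the median difference was 0.10, against -0.000109 over all named rows, of which 1.55% passed in either direction. An unadjusted p of 0.05 or less was found for 7 of the 18, against 3068 of the 23410 named rows (limma). *Nr2f2*, which encodes the nuclear receptor COUP-TFII, rose by 0.52 (standard error 0.05, adjusted p = 0.000986 from limma), from 10.7 ± 0.238 (SD, n = 4) to 11.2 ± 0.240 (SD, n = 4). *Bmi1*, a Polycomb gene of neural stem cell renewal, rose by 0.45 (standard error 0.07, adjusted p = 0.00741). *Ccnd2*, the G1 cyclin D2, rose by 0.26 (standard error 0.05, adjusted p = 0.0327), a call that was lost whichever of the 8 arrays was left out (adjusted p = 0.0536 to 0.0997). *Cdkn1c*, an inhibitor of cyclin-dependent kinases, had 0.28 (adjusted p = 0.0793). No left-out array ended the calls of *Nr2f2* and *Bmi1*, but that of *Nr2f2* was lost with batch as a random effect (adjusted p = 0.0508) and without a batch term (0.357), that of *Bmi1* by a plain linear model (0.139) and over all rows (0.0676), and all 3 in either batch alone. In batch 1 and in batch 2 the difference was 0.52 and 0.52 for *Nr2f2*, 0.48 and 0.41 for *Bmi1* and 0.21 and 0.31 for *Ccnd2*, side by side with differences for the *Mir302* genes that were smaller in batch 2. Whether the level of a microRNA bears on these genes was not tested.

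Factors of pluripotency were examined because the cluster is best known from pluripotent cells. Of 21 measured, 1 passed and fell in *Sox3* null cells and 20 did not pass, against 1.55% of named rows that passed in either direction. The median difference was -0.13, and 16 of the 21 had a difference below 0, while 49.95% of all named rows had one above 0. An unadjusted p of 0.05 or less was found for 12 of the 21, against 3068 of the 23410 named rows (limma). *Nanog*, a homeobox factor of ES cells, fell by 0.37 (adjusted p = 0.0464), and this call was lost when any 1 array other than control replicate 4 was left out (adjusted p = 0.0619 to 0.151). *Pou5f1*, which encodes OCT4, had -0.27 (adjusted p = 0.259), *Sall4* -0.24 (adjusted p = 0.0822) and *Tfcp2l1* -0.27 (adjusted p = 0.0932). *Sox2*, shared by ES cells and neural progenitors, had 0.21 (adjusted p = 0.0825). *Pou5f1* had log2 signals of 10.80, 10.78, 10.89 and 10.62 in control replicates 1 to 4 and of 10.42, 10.22, 10.79 and 10.60 in null replicates 1 to 4. Its null arrays of batch 1 were the lowest, as for the microRNA genes, and in batch 2 the genotypes overlapped, as for *Mir302b* and *Mir367* but not for the other 3 genes.

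Of 11 genes of the primed epiblast, the state that follows the naive one, 2 passed, both lower in *Sox3* null cells, and 9 did not pass. Of all named rows, 1.55% passed in either direction. By limma, 6 of the 11 had an unadjusted p of 0.05 or less, against 3068 of the 23410 named rows. All 11 had a difference below 0, with a median of -0.17, while 49.95% of all named rows had a difference above 0. *Otx2*, a homeobox factor of the epiblast and later of the forebrain, fell by 0.47 (standard error 0.08, adjusted p = 0.0113). Its log2 signals were 9.29, 9.35, 9.43 and 9.41 in control replicates 1 to 4 and 8.74, 8.59, 9.16 and 9.10 in null replicates 1 to 4, so that the groups did not overlap and the null arrays of batch 1 were again lowest. The call was lost without control replicate 1 (adjusted p = 0.0518), with batch as a random effect (0.0699), without a batch term (0.314), by a plain linear model (0.188), over all rows (0.0934) and in either batch alone. *Dnmt3b*, a methyltransferase that sets new DNA methylation, fell by 0.33 (standard error 0.06, adjusted p = 0.0154), a call lost without either control or either null array of batch 1 (adjusted p = 0.0514 to 0.0699), without a batch term (0.115), by the plain model (0.139), over all rows (0.0882) and in either batch alone. *Pou3f1* had -0.23 (adjusted p = 0.0557) and *Fgf5* -0.34 (adjusted p = 0.118).

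The rows with a pattern most like the mean of the 5 genes over the 8 arrays were those of *Myd88*, an adaptor of innate immune receptors (Pearson r = 0.988), *1700034J05Rik* (0.968), *Car2*, a carbonic anhydrase (0.964), *Epcam*, an epithelial adhesion molecule of ES cells (0.958), *Eras*, a Ras gene expressed in ES cells (0.951), *Pdzd4* (0.937), *Klf10* (0.936) and *Dhrs3*, a retinaldehyde reductase (0.928). *Otx2* had 0.926, *Pou5f1* 0.923 and *Nanog* 0.836, but the pluripotency list as a whole did not follow the cluster: over its 21 genes r ran from -0.532, for *Sox2*, to 0.923, with a median of 0.111 and 8 genes below 0. *Tbx3* had -0.280, *Zfp42* -0.233 and *Esrrb* -0.0560. Over the 11 primed epiblast genes r ran from -0.168 to 0.926, with a median of 0.493. Of the 8 closest, *Eras* was lower in *Sox3* null cells, by -0.41 (adjusted p = 0.0469), a call lost when any 1 array other than control replicate 4 was left out (adjusted p = 0.0736 to 0.117), and the other 7 did not pass. Their differences were smaller than those of the *Mir302* genes: *Epcam* had -0.26 and *Myd88* -0.18. The rows least like the mean were those of *Sgo2b* (-0.949), *Sorcs3* (-0.948), *Fhod3* (-0.948) and *Prex1* (-0.941), of which *Sorcs3*, a sorting receptor of neurons, was higher in null cells by 0.45 (adjusted p = 0.0237), a call lost without control replicate 1, 2 or 3 or null replicate 1 or 2 (adjusted p = 0.0503 to 0.0953). These correlations describe 8 arrays that share genotypes and batches, and they were picked as the extremes among many rows.

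**Figure D3:**
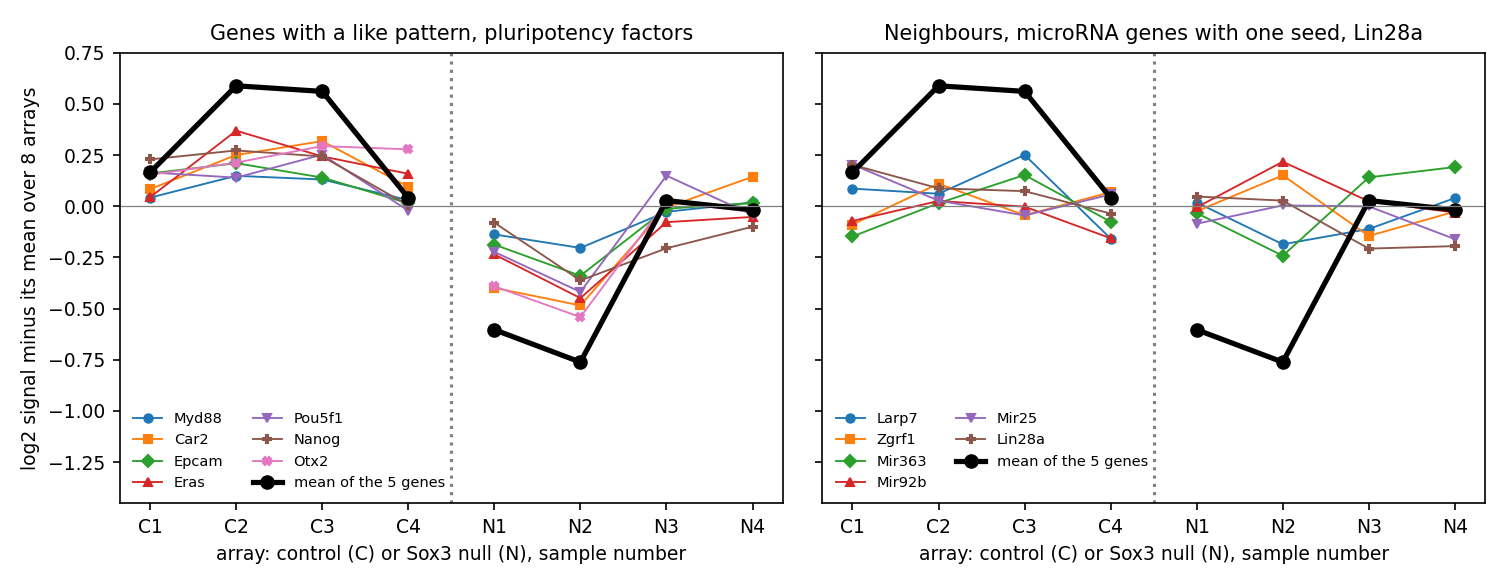
Log2 signal on each array minus the mean over 8 arrays (y axis) for control (C) and *Sox3* null (N) samples by number (x axis, numbers 1 and 2 are batch 1); the black line is the mean of the 5 microRNA genes and lines only join samples of one genotype. Left, *Myd88*, *Car2*, *Epcam*, *Eras*, *Pou5f1*, *Nanog* and *Otx2*, picked for a correlation with the black line of 0.836 or more, which most pluripotency factors did not have; right, *Larp7*, *Zgrf1*, *Mir363*, *Mir92b*, *Mir25* and *Lin28a*, with correlations from -0.460 to 0.633.

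Whole-series values set these results in scale. The array medians lay between 7.63 and 7.70 on the log2 scale, and no 2 arrays held identical values. By limma, 101 of 23410 named rows were called for genotype, 75 higher and 26 lower in *Sox3* null cells, and 584 for batch.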

How the data were processed

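RNA of 8 samples, 4 of each genotype, was hybridised to Affymetrix whole-transcript mouse gene arrays. The deposited table gives log2 signals, 1 value for each probe set and array, already normalized by the authors. Partek stands in the submitters' processing notes. How the arrays were normalized and summarised, and on which build, was not given in the sources used here. Of 35556 rows, 21789 had 1 gene symbol, 1621 several and 12146 none here. Columns of other samples numbered 0. The study used an ANOVA with genotype and batch.

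A linear model of genotype and batch, or of their interaction, was fitted to each named row in limma 3.58.1 (R 4.3.3), which gave every p-value here. Adjustment was by Benjamini-Hochberg over all 23410 named rows. Rows passed with an adjusted p no higher than 0.05, and were called if they also differed by at least 1.4-fold. The steps were tested on simulated data in which rows varied independently, unlike the rows of the cluster. The number of arrays limits the precision.

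The genes, the lists and the rules were chosen with earlier results of these data known. Named are the cluster's genes, *Larp7* and the nearest neighbours, *Pou5f1*, *Nanog*, *Sox2*, *Lin28a* and *Sox3*, the genes of each list that passed or otherwise up to 4 with the smallest p, genes that share a seed, and the 8 rows most and 4 least like the mean of the cluster with an SD above the median. The brightest row of a symbol stood for a gene. Of 6 measured mesoderm and endoderm markers none passed (mean log2 signal 7.07 to 7.52 in control and 7.05 to 7.33 in null cells). Sequences came from RefSeq. Alternatives changed the batch term, the variance, the rows, the normalization, array weights, thresholds and the arrays used.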

Additional observations from a re-analysis of the deposited data

How the results depend on the processing

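The mean genotype difference of the 5 microRNA genes was -0.68, with -1.06 in batch 1 alone, -0.30 in batch 2 alone and -0.86 to -0.52 when each array was left out. The batch difference of *Mir367* turned to -0.033 without *Sox3* null replicate 3 (range over left-out arrays -0.033 to 0.30), and the change of the genotype difference for *Mir302b* turned to -0.039 without control replicate 4 (-0.039 to 0.94). Within control cells the batch difference changed sign with the array left out and ran from -0.30 to 0.48 for *Mir302a*, -0.31 to 0.67 for *Mir302b*, -0.28 to 0.095 for *Mir302c* and -0.48 to 0.0075 for *Mir302d*. The fits within a genotype were chosen after seeing the data. With rows under the median signal left out, *Mir302d* alone of the 5 genes remained.

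Rows called for genotype numbered 101, with 29 without a batch term, 58 where batch was a random effect, 22 by a plain linear model, 62 over all rows, 18 in batch 1 alone, 23 in batch 2 alone, 362 without the fold threshold and 85 to 126 when an array was left out. Calls for genotype on the gene lists numbered 6, with 1 without a batch term, 2 with the random effect, 1 by the plain model, 1 over all rows, 0 in batch 1 alone, 1 in batch 2 alone, 1 with the fold threshold and 3 to 6 when an array was left out (3 without control replicate 1 or *Sox3* null replicate 2). Rows called for batch numbered 584, with 982 over all rows and 4736 without the fold threshold. List calls for batch numbered 41, with 22 by the plain model, 27 over all rows and 6 with the fold threshold. The call was lost in 15 of 21 alternatives for *Nanog*, 16 of 21 for *Ccnd2*, 15 of 20 for *Eras* and 11 of 21 for *Sorcs3*. The cause of these shifts was not tested.

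Whether the sample numbers pair the samples was not settled. After genotype and batch, deviations of same-numbered samples correlated at -0.324 for numbers 1 and 2 and at 0.305 for 3 and 4. With 2 arrays of each genotype in a batch, both numbers of a batch give the same value. With the replicate number as a block, 103 rows were called, and 4 list calls remained, those lost being *Nanog* (adjusted p = 0.0718) and *Ccnd2* (adjusted p = 0.0622).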
